A study of Mus musculus with 24 samples.

Results

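The data describe retinoic acid (RA) differentiation of mouse embryonic stem cells (ESCs) that had been depleted of Rsl24d1, a factor of large ribosomal subunit assembly. Members were chosen by their labels: 3 RNA-seq libraries of si-Rsl24d1 cells collected at day 0 and 3 collected after 4 days in 10 nM RA, all without rescue, which makes 6 of the 24 libraries of the series. The day 0 cells (CGR8, an ESC line) had received a pool of siRNAs against Rsl24d1 and were kept in serum with LIF, the cytokine that sustains ESC self-renewal. The day 4 cells received the same siRNAs and were then seeded into serum with RA. For comparison there were 3 libraries per day of si-CTL cells (a pool of non-targeting siRNAs) and 3 per day of si-Rsl24d1 cells in which doxycycline induced an ectopic RSL24D1, referred to as rescued. Cells without rescue are labelled as carrying an empty vector, and all groups derive from 1 cell line. The methods of the study state that LIF was left out during RA treatment, whereas the design text of the series names LIF together with RA, so that RA, LIF, the medium and the time since transfection cannot be told apart in a comparison of days.

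RA is the ligand of nuclear receptors of the RAR and RXR families. Inside cells it is bound by the carrier proteins CRABP1 and CRABP2, it is degraded by enzymes of the CYP26 family, and in ESCs turns on Hox genes and homeodomain cofactors while the self-renewal programme is shut down. At low doses in adherent serum cultures, ESCs are known to give mixed derivatives that include extraembryonic endoderm and mesenchymal cells. In such bulk samples, fewer cells of a type and less RNA per cell cannot be told apart.

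Expression is given as log2(TPM + 1), a unit that corrects reads for gene length and scales every library to a sum of 1000000. The sequencing depth is therefore unknown. Each group mean rests on 3 libraries, whereas SE and p values use a spread estimated over all 24 libraries. The day 0 libraries of si-Rsl24d1 cells listed 24572 to 25176 symbols above 0, and the day 4 libraries 25064 to 25904. Short polymerase III and 7S transcripts, whose recovery varies with library preparation, took 0.0256% to 0.0683% of the TPM at day 0 and 0.00987% to 0.0493% at day 4. Of 16447 tested genes, those that limma gave a p below 0.01 after Benjamini-Hochberg adjustment and that differed by over 1.8-fold, or 0.848 as a log2 difference, are said to rise or fall. Changes are given as log2 differences ± SE from that fit and understate the change of genes with low levels.

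The siRNA target itself was not constant between the days. Rsl24d1 (chromosome 9, 73113426 to 73123333, GRCm38) stood at 5.23, 5.28 and 5.07 in the 3 libraries of day 0 and at 6.50, 6.61 and 6.66 in those of day 4. The days did not overlap, as for 66.3% of all genes tested. This rise of 1.39 ± 0.07 had an adjusted p of 1.1e-12 (limma). In si-CTL cells the same mRNA went from a mean of 7.15 at day 0 to 6.63 at day 4, a difference of -0.52 ± 0.07 that stayed below the fold threshold. At day 4 the mean of 6.59 in si-Rsl24d1 cells was close to that of si-CTL cells, and the difference between the changes in si-Rsl24d1 and si-CTL cells was 1.91 ± 0.10 (limma adjusted p = 2.7e-11). Every change described for si-Rsl24d1 cells therefore spans RA treatment together with the return of the depleted mRNA, and these cannot be told apart. In rescued cells, where the mRNA signal sums what the siRNA leaves and what the ectopic copy adds, the means were 6.75 and 7.04.

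Between day 0 and day 4 of RA, 1304 genes rose in si-Rsl24d1 cells, which is 7.93% of the genes tested, and 1023 fell, which is 6.22%. Of these 2327 genes, 2055 are protein coding. The libraries of the days did not overlap for 2325 of them, beside 66.3% of all genes tested. The median change over all genes tested was 0.02.

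The 10 largest rises among protein coding genes detected in all libraries were those of Actc1, Acta2, Col3a1, Dlk1, Tnc, Igf2, Postn, Igfbp5, Ptn and Meis2. Actc1, cardiac alpha-actin (chromosome 2, 114047282 to 114053548), was at 0.56, 0.95 and 0.27 at day 0 and at 6.59, 6.73 and 6.69 at day 4, a rise of 6.08 ± 0.12. Acta2, smooth muscle alpha-actin (chromosome 19, 34241090 to 34255590), went from 4.51, 4.57 and 4.55 to 9.29, 9.47 and 9.33, a rise of 4.82 ± 0.08. The day 4 libraries lay far above the day 0 libraries for both actins, and Acta2 was the more abundant on either day. Col3a1, a fibrillar collagen, rose by 4.73 ± 0.20, Tnc (tenascin C, a matrix glycoprotein) by 4.69 ± 0.10 and Postn (periostin) by 4.38 ± 0.08. Dlk1, a membrane protein of the Notch ligand family, and Igf2, a fetal growth factor, rose by 4.71 ± 0.06 and 4.38 ± 0.08. Meis2, a homeodomain cofactor induced by RA, rose by 3.84 ± 0.09 from a mean of 0.82. Otor and Nostrin were listed at 0 in all 3 libraries of day 0 and reached means of 1.61 and 1.16 at day 4, for which no fold is given.

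The 10 largest falls were those of Neurod1, Slc4a11, Ltb4r2, Foxn4, Pim2, Zfp365, Wnt8a, Dll1, Fosl1 and Pou3f1. Neurod1, a neurogenic bHLH factor (chromosome 2, 79452521 to 79456751), was at 5.02, 4.91 and 4.96 at day 0 and at 0.96, 0.98 and 0.88 at day 4, and fell by 4.03 on the log2 scale (SE 0.08). Dll1, a Notch ligand (chromosome 17, 15367354 to 15376872), went from 4.27, 4.29 and 4.23 to 1.26, 1.21 and 1.24. In si-CTL cells the day 0 means of these genes were lower, at 2.37 for Neurod1 and 1.97 for Dll1, and the day 4 means were 0.79 and 1.00, beside 0.94 and 1.24 in si-Rsl24d1 cells. Slc4a11 (a membrane transporter), Ltb4r2 (a leukotriene receptor), Foxn4 and Zfp365 were likewise at 6.02, 3.96, 3.97 and 5.93 in si-Rsl24d1 cells at day 0 beside 3.89, 0.98, 2.42 and 3.59 in si-CTL cells. Pim2, a kinase gene downstream of LIF and Stat3, had no such gap: it was at 6.49 and 6.51 at day 0 and at 3.28 and 3.22 at day 4 in si-Rsl24d1 and si-CTL cells.

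**Figure D1:**
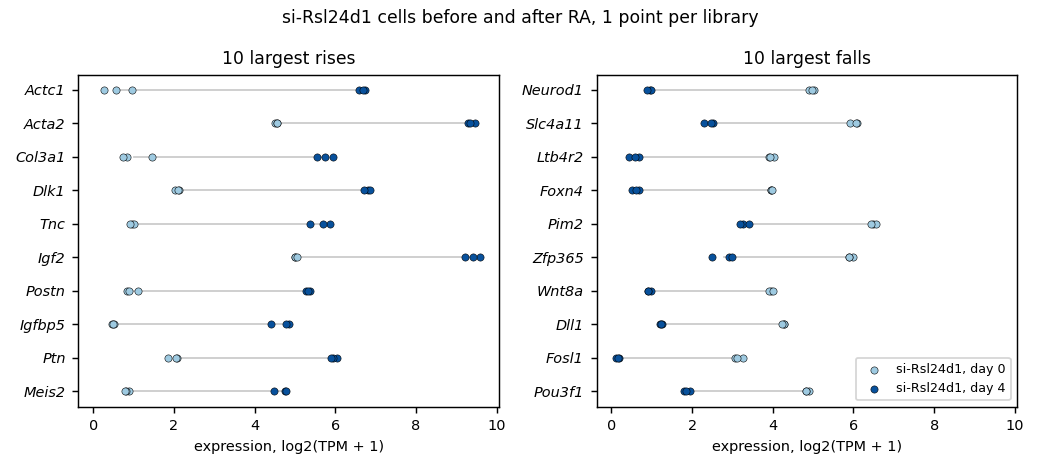
Expression in log2(TPM + 1) (horizontal axis) of the 10 top rising and the 10 top falling genes of si-Rsl24d1 cells, with 1 point per library and a grey line between the means. Light points are the 3 libraries of day 0 and dark points the 3 of day 4. The 20 genes were picked among those whose days do not overlap.

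Of the genes that hold the ESC state, core and naive factors did not move together. Among 11 core pluripotency genes, 2 rose and 4 fell, with a median change of -0.81. The number of falls depended on single libraries, with 2 without the second library of day 0 or the first of day 4 and 6 without the third of day 4. Pou5f1, which encodes OCT4, was at 9.81, 9.80 and 9.82 at day 0 and at 8.97, 8.96 and 9.02 at day 4, a change of -0.83 ± 0.04 that fell just short of the fold threshold and was not called. Sox2 changed by -0.65 ± 0.05 and was not called either, while Tdgf1, a Nodal co-receptor, fell by 1.44 on the log2 scale (SE 0.04). Nanog, a homeodomain factor of self-renewal, was instead higher at day 4, at 8.17, 8.22 and 8.28 against 7.15, 7.17 and 7.08. The rise of Nanog was 1.09 ± 0.04, and the si-CTL cells showed a change of 0.79 ± 0.04, below the fold threshold. The difference between these changes, 0.30 ± 0.05, was not called (limma adjusted p = 2.0e-04, under 1.8-fold). Dppa5a, an RNA-binding protein of ESCs, rose by 1.05 ± 0.07 in si-Rsl24d1 and by 1.03 ± 0.07 in si-CTL cells.

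Among 17 naive pluripotency genes, 4 rose and 2 fell in si-Rsl24d1 cells, with a median change of 0.37. Dppa3 (STELLA, of the early embryo and germ line) rose by 1.93 ± 0.06, Sox15 by 1.35 ± 0.05 and Prdm14 by 1.27 ± 0.08, and Tcl1 (a cofactor of AKT) went from a mean of 4.75 to one of 6.26, while Gbx2 and Tdh (threonine dehydrogenase) fell by 1.93 and 0.98 on the log2 scale. In si-CTL cells 2 of the 17 rose and 6 fell, with a median of -0.58. A difference between the 2 day effects was called for 8 of the 17, higher in si-Rsl24d1 cells for 7 of them and for 6 with median of ratios scaling. For example, Zfp42 (REX1) went from 8.38, 8.39 and 8.31 to 8.90, 8.88 and 8.98 in si-Rsl24d1 cells and from 9.33, 9.33 and 9.29 to 8.82, 8.91 and 8.81 in si-CTL cells. The groups thus differed at day 0 and overlapped in range at day 4, and the changes differed by 1.03 ± 0.07 (limma adjusted p = 8.4e-10). Esrrb, an orphan nuclear receptor of naive ESCs, showed the same order, with means of 6.19 and 6.72 beside 7.28 and 6.56, a difference of 1.24 ± 0.12. The difference for Klf4 was 0.85 ± 0.13 and was no longer called with median of ratios scaling.

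**Figure D2:**
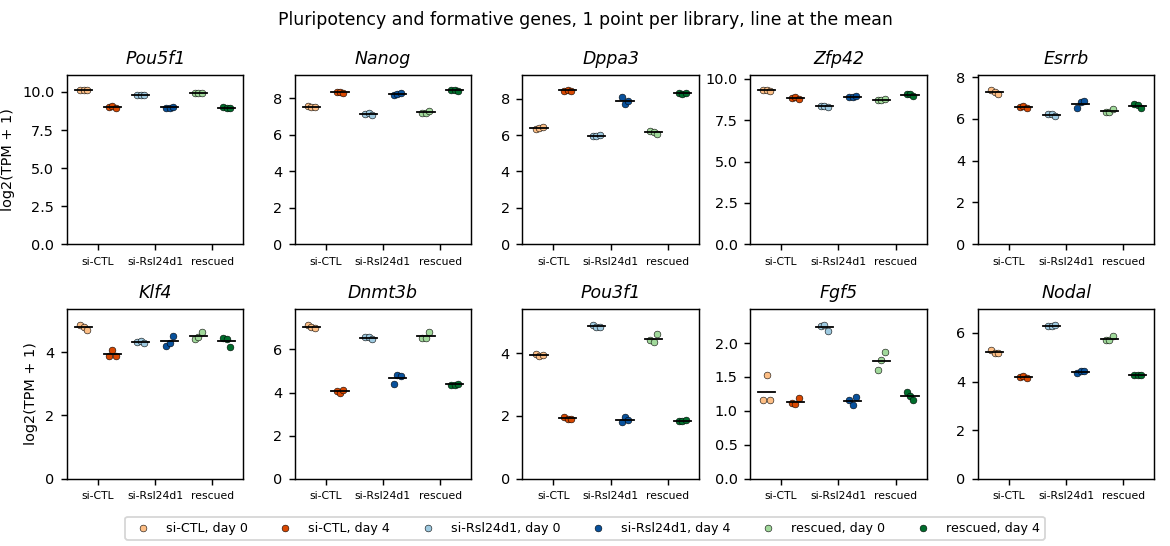
Expression in log2(TPM + 1) (vertical axis, from 0) of 10 pluripotency and formative genes in si-CTL, si-Rsl24d1 and rescued si-Rsl24d1 cells at day 0 (light) and day 4 (dark), with 1 point per library and a line at the mean of 3 libraries. Zfp42 and Esrrb are lower in si-Rsl24d1 than in si-CTL cells at day 0 and close to them at day 4, while Pou3f1, Fgf5 and Nodal are higher at day 0 and close at day 4.

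Genes of the formative and post-implantation epiblast, the state that ESCs pass through on leaving naive pluripotency, had 9 of 12 members called lower and none higher, with a median of -1.23. Pou3f1 (OCT6) went from 4.91, 4.83 and 4.82 to 1.81, 1.96 and 1.86, Nodal from 6.30, 6.28 and 6.34 to 4.35, 4.43 and 4.42, and Fgf5 from 2.24, 2.27 and 2.17 to 1.15, 1.09 and 1.21. All 3 were higher at day 0 than in si-CTL cells, whose means were 3.94, 5.21 and 1.29, and their falls exceeded those of si-CTL cells by 0.97 ± 0.08, 0.89 ± 0.08 and 0.93 ± 0.17. Dnmt3b, a de novo DNA methyltransferase, fell by less than in si-CTL cells, by 1.86 on the log2 scale (SE 0.09) beside 2.99. Dnmt3a fell by 1.81 and Otx2 by 1.00, while the neural plate factors Zic2 and Zic5 changed by -0.55 ± 0.09 and -0.51 ± 0.13 without passing the threshold. In si-CTL cells 8 of the 12 genes fell, with a median of -1.22.

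Signalling genes were read pathway by pathway. Of 20 genes of the FGF-ERK pathway, 9 fell and 1 rose. Etv4 and Spry4, a transcription factor and a feedback inhibitor induced by ERK, fell by 2.97 and 2.56 on the log2 scale, and the growth factor gene Fgf15 by 2.14. Spry1 rose by 0.93 ± 0.07. In si-CTL cells 9 of the 20 fell and none rose. A more positive change in si-Rsl24d1 than in si-CTL cells was called for 7 of the 20 and a more negative one for 1, and with median of ratios scaling for 4 and 1. Of 18 tested genes of Nodal, Lefty and BMP signalling, 6 fell and 4 rose: the BMP target Id1 and the Nodal inhibitor Lefty1 fell by 2.09 and 1.71, whereas Nog, which encodes the BMP antagonist noggin, rose by 2.67 ± 0.10 and Bmp2 by 1.57 ± 0.12. The 27 tested Wnt genes split into 5 that rose and 5 that fell. The ligands Wnt8a and Wnt3 fell by 3.03 and 1.92, and the Wnt target Sp5 by 1.73, while the inhibitors Dkk1 and Sfrp1 rose by 1.86 ± 0.10 and 1.18 ± 0.10. With 0.1 or 2 added to the TPM, 8 or 3 Wnt genes rose, and with 2 added 2 of the Nodal and BMP list rose. In the LIF and Stat3 pathway 3 of 11 fell, Socs3, Bcl3 and Junb, and Il6st, the signalling chain of the LIF receptor, rose by 1.19 ± 0.12.

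RA signalling genes were read by their role in the pathway. Among 19 tested genes of receptors, carriers and metabolism, 4 rose and 3 fell, with a median of 0.50. The carriers Crabp2 and Crabp1 rose by 1.84 ± 0.07 and 1.14 ± 0.07, Rbp4 (retinol-binding protein) by 1.17 ± 0.09 and the RA-degrading enzyme Cyp26b1 by 1.05 ± 0.08. The receptors Rarg, Rxrg and Rara fell by 1.91, 1.17 and 0.92. Rarb, the RA receptor gene that RA itself induces through an element in its promoter, was at 0.34, 0.31 and 0.69 at day 0 and at 1.18, 1.19 and 1.33 at day 4, and Cyp26a1 at 0.97, 1.29 and 1.09 and then at 1.74, 1.99 and 1.72. Neither gene overlapped between days, which also held for 66.3% of all genes tested. The changes of 0.78 ± 0.09 and 0.70 ± 0.12 were below the fold threshold, and in si-CTL cells they were 0.27 ± 0.09 and -0.09 ± 0.12. With 0.1 in place of 1 added to the TPM, 9 genes of this list rose in place of 4. No difference between the si-Rsl24d1 and si-CTL day effects was called in this list.

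The classical RA response element is a direct repeat of the core AGGTCA. Here this core, its variant AGTTCA, its variant GGGTCA and the variant GGTTCA were searched, each followed after 5 bases by any of them, on both strands, in the RefSeq window from 250 bases before to 50 after each gene start (GRCm38.p6). It was found in 31 of 27025 genes with a window, which is 0.115%. Of 16 genes of receptors, carriers and metabolism with a window, 2 held it, Rarb and Cyp26a1. None of 8 RA target genes and none of 22 Hox genes with a window held it, which says only that these letters are not in this window. The repeat of Rarb begins 53 bases before the start and that of Cyp26a1 32 bases before it, and both stretches are shown with the repeat in capitals because they belong to the RA response genes of the pathway (Rarb, chr14:16575477-16575569, minus strand; Cyp26a1, chr19:37697736-37697807, plus strand).
Rarb: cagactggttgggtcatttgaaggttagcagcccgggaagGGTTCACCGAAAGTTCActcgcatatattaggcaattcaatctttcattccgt
Cyp26a1: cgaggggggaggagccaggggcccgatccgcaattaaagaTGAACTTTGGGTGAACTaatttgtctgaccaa

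Further RA targets rose more often than the genes of receptors, carriers and metabolism. Of 13 tested, 9 rose and none fell, with a median of 1.74 beside 0.02 over all genes. Meis2 went from 0.89, 0.80 and 0.78 to 4.48, 4.75 and 4.77, Nr2f1 (COUP-TFI, an orphan nuclear receptor) from 0.24, 0.45 and 0.13 to 3.31, 3.50 and 3.53, and Meis1 from 1.18, 1.32 and 1.07 to 4.15, 4.41 and 4.37. Stra8, a gatekeeper of meiosis that RA induces, rose by 2.72 ± 0.10. In si-CTL cells 8 of the 13 rose, with a median of 1.26. A larger rise in si-Rsl24d1 cells was called for 3 of these genes, among them Meis2 and Nr2f1, and with median of ratios scaling a larger rise was called for none of the 13 and a smaller one for 1. Of 39 Hox genes only 10 passed the filter on low values, and 27 stayed under 1 in all 6 libraries. Among the 10, 5 rose and 1 fell: Hoxb2 rose by 2.23 ± 0.08 to a mean of 2.35, Hoxa3 by 1.38 ± 0.09 and Hoxb4 to a mean of 1.66, while Hoxc13 fell by 1.08. With 2 added to the TPM 3 rose and none fell, and with a filter at a mean of 1.5 none was called in either direction.

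The matrix and contractile lists held rises and no falls. Of 17 tested genes of collagens, laminins and fibronectin, 12 rose and none fell, with a median of 1.49. Col3a1 went from 0.83, 1.45 and 0.74 to 5.53, 5.74 and 5.94, and Col1a1, which encodes a chain of type I collagen, from 3.91, 3.83 and 3.97 to 6.28, 6.99 and 6.78. Col12a1 rose by 3.63 ± 0.12. In si-CTL cells 6 of the 17 rose, with a median of 0.65. The rise was larger in si-Rsl24d1 cells for 7 of the 17 and smaller for none, under both scalings. For Col1a1 the si-CTL means were 4.50 and 5.23, and the difference of the changes was 2.05 ± 0.21 (limma adjusted p = 2.8e-07). Of 15 genes of parietal endoderm and basement membrane, 9 rose and none fell. They included Srgn, a secreted proteoglycan that rose by 3.51 ± 0.15, and the type IV collagens Col4a1 and Col4a2, which rose by 1.64 ± 0.11 and 1.92 ± 0.10.

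Of 15 contractile and smooth muscle genes, 11 rose and none fell, with a median of 1.39. Tagln (transgelin) went from 6.94, 6.98 and 7.11 to 9.29, 9.34 and 9.21, and Myl9, a myosin light chain, from 2.84, 2.94 and 3.00 to 6.35, 6.45 and 6.29. Actg2, the enteric smooth muscle actin, rose by 2.19 ± 0.09 from a mean of 0.16. The actin mRNAs share long stretches of coding sequence, so that the reads of single actin genes are less certain than their sum. In si-CTL cells 8 of the 15 rose, with a median of 1.03, and the rise of 4 genes was called larger in si-Rsl24d1 cells (3 with median of ratios scaling). For Acta2 and Myl9 the differences were 1.42 ± 0.11 and 1.21 ± 0.09. Genes that serum response factor controls often carry a CArG box near their start, which was found in 1.81% of all genes with a promoter window, in 1.59% of the 11432 tested genes with one and in 2.63% of the 911 such genes that rose. Of 11 contractile genes with a window, 2 held one, Myl9 and Cnn2 (calponin 2, named for this match after its values were seen). Among the 10 largest rises it was present in 2, Actc1 and Igf2, and among 12 genes of collagens, laminins and fibronectin in none. The 10 were picked by their change in these data, and both sets are too small for their counts to be read against the share over all genes. Absence of the box says only that these letters are not in this window. The stretches of Actc1 (chr2:114052876-114052982, minus strand), whose rise was the largest, and of Myl9 (chr2:156775243-156775372, plus strand) are shown with the CArG box in capitals, at 47 and 161 bases before the start (RefSeq, GRCm38.p6).
Actc1: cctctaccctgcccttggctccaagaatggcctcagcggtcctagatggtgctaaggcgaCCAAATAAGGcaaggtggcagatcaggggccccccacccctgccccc
Myl9: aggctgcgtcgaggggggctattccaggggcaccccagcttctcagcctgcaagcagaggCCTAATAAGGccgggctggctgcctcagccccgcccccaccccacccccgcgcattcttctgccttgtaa

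Of 14 tested mesenchymal transition genes, 7 rose and 1 fell. Prrx1, a mesenchymal homeodomain factor, went from 0.08, 0.13 and 0.12 to 2.08, 2.39 and 2.54, and was at a mean of only 0.54 in si-CTL cells at day 4, a difference of the changes of 1.78 ± 0.13. The transcription factors Zeb1, Twist1 and Snai2 rose by 1.36 ± 0.13, 1.35 ± 0.10 and 1.33 ± 0.09, and the intermediate filament gene Vim by 1.23 ± 0.06. In si-CTL cells 2 of the 14 rose and 1 fell. A more positive change in si-Rsl24d1 cells was called for only 2 of the 14, and for 1 with median of ratios scaling. Of 14 epithelial genes, 3 fell and 1 rose. Cdh1 (E-cadherin) fell by 1.16 (SE 0.11), and Ap1m2, a sorting adaptor of epithelia, by 1.68, and Esrp2, an epithelial splicing regulator, went from 4.00, 3.97 and 3.98 to 2.51, 2.68 and 2.56, while the keratin genes Krt8 and Krt18 changed by 0.35 ± 0.06 and 0.80 ± 0.05 without being called. The same 3 epithelial genes fell in si-CTL cells, by 1.37, 1.64 and 1.32.

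Markers of primitive and visceral endoderm rose from low levels, 6 of 12 tested and none lower. Cubn and Dab2, an endocytic receptor of the visceral endoderm and its adaptor, rose by 2.52 ± 0.15 and 2.19 ± 0.13. The lineage factors Gata6, Gata4 and Sox17 reached 1.96 to 2.38, 1.57 to 2.18 and a mean of 1.48 at day 4, and Foxa2 stayed at a mean of 0.92 and under the filter. In si-CTL cells 3 of the 12 rose, and a more positive change in si-Rsl24d1 than in si-CTL cells was called for only 1 of the 12. The count of 6 rises in si-Rsl24d1 cells depended on low levels and fell to 1 with a filter at a mean of 1.5. Of 15 tested neuron markers, 6 fell and 1 rose, with Nefl (a neurofilament) from 4.31, 4.41 and 4.43 to 2.17, 2.18 and 2.26 and Tubb3 (neuronal tubulin) from 5.99, 6.00 and 5.99 to 4.60, 4.73 and 4.75. Only Ncam1 rose, by 1.09 ± 0.12. In si-CTL cells 7 of the 15 neuron markers fell and none rose, with a median of -0.84 beside -0.41 in si-Rsl24d1 cells. A difference between the day effects was called for only 1 of them. Of 12 tested neural progenitor markers, 3 fell and none rose. Nkx2-9 fell by 2.96 from a day 0 mean of 4.16, beside 1.65 in si-CTL cells, and Sox3 by 1.20, whereas Pax6, Sox1 and Nes changed by 0.70 ± 0.09, 0.26 ± 0.08 and -0.14 ± 0.13 and were not called.

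Of 13 tested primitive streak and mesoderm markers, T (Brachyury) fell by 2.33, with 2.71, 3.34 and 2.87 at day 0 and 0.77, 0.59 and 0.56 at day 4, and Wnt3 fell by 1.92, while Foxc1 and Bmp4 rose by 1.03 ± 0.07 and 0.85 ± 0.14, the latter call being lost with median of ratios scaling. Of 7 tested trophoblast markers 3 rose: Krt7 by 2.68 ± 0.14, Plac1 by 2.02 ± 0.09 and Gata3 by 1.27 ± 0.11. Plac1 changed by only 0.17 ± 0.09 in si-CTL cells, a difference of 1.84 ± 0.13. In si-CTL cells 2 of the 7 rose, and a difference between the day effects was called for only 1 of the 7. Blood markers had 1 fall among 6 tested (Cd34) and 5 of 10 under 1 in all 6 libraries, and endothelial markers had 2 falls among 6 tested (Tek and Sox18). Of 8 tested cardiomyocyte markers only Actc1 and Tnnt2 rose, with Myh6 and Myl7 at -0.33 ± 0.15 and -0.29 ± 0.12. Of 6 tested neural crest markers Foxd3 and Ngfr fell, by 1.44 and 1.18, and Sox9 rose by 1.16 ± 0.08. Several of these small counts moved with the settings: with 0.1 added to the TPM 4 streak and mesoderm markers, 5 cardiomyocyte and 3 neural crest markers rose. Without the first library of day 4, 2 neural crest markers and 1 endothelial marker rose, 2 blood markers fell and 1 streak and mesoderm marker rose. The streak and mesoderm count was also 1 without the first or second library of day 0, the endothelial count 1 without the first, and the blood count 2 without the second.

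Of 19 germ cell and meiosis genes, 6 rose and none fell. Smc1b, a meiotic cohesin, rose by 2.42 ± 0.11, and Dazl, an RNA-binding protein of germ cells, went from 3.35, 3.09 and 2.93 to 5.39, 5.49 and 5.52. The rise of Dazl was 1.06 ± 0.14 smaller than in si-CTL cells, where it reached 6.12, 6.13 and 6.26. A smaller rise in si-Rsl24d1 cells was called for 4 of the 19 and a larger one for none. Of 13 tested genes of the 2-cell stage, 5 rose, with Tmem92 at 1.72 ± 0.10 and Zscan4f at 1.33 ± 0.10. The Zscan4 copies are near-identical, so that their single values are uncertain. Of the same 13 genes, 7 rose in si-CTL and 11 in rescued cells. The medians were 0.62 in si-Rsl24d1, 0.90 in si-CTL and 1.20 in rescued cells. No difference to si-CTL cells was called, and 2 genes had a more positive change in rescued than in unrescued cells. Among 22 tested imprinted genes 8 rose and 1 fell. H19, a non-coding RNA next to Igf2 (chromosome 7, 142575529 to 142578143), went from 5.19, 5.14 and 5.27 to 9.67, 9.87 and 9.79. Igf2 went from 5.00, 5.01 and 5.05 to 9.20, 9.58 and 9.40. Peg3, a zinc finger gene, rose by 2.49 ± 0.12. H19 and Igf2 also rose in si-CTL cells, by 3.66 ± 0.07 and 3.27 ± 0.08. In si-CTL cells 6 of the 22 imprinted genes rose and 4 fell. A more positive change in si-Rsl24d1 cells was called for 8 of the 22 and a more negative one for none, and with median of ratios scaling for 5 and 1.

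Of 24 targets of p53, 10 fell and none rose in si-Rsl24d1 cells, with a median of -0.78, whereas in si-CTL cells 1 fell and the median was -0.08. Mdm2, the ubiquitin ligase that p53 induces and that degrades it (chromosome 10, 117688875 to 117710758), was at 9.09, 8.97 and 9.02 at day 0 and at 6.69, 6.89 and 6.90 at day 4. In si-CTL cells Mdm2 was at 6.78, 6.66 and 6.62 and then at 6.41, 6.44 and 6.44, so that the groups were far apart at day 0 and 0.40 apart at day 4. The changes of -2.20 ± 0.06 and -0.26 ± 0.06 differed by -1.94 ± 0.08 (limma adjusted p = 1.8e-12). Perp, Pidd1 and Plk2, a membrane protein, an adaptor and a kinase of the p53 response, fell by 2.15, 1.98 and 1.25. A more negative change than in si-CTL cells was called for 13 of the 24 and a more positive one for none, under both scalings. Cdkn1a (p21) changed by -0.32 ± 0.05 and Ccng1 by -0.77 ± 0.07, which did not pass the threshold, while in si-CTL cells they changed by 0.65 ± 0.05 and 0.24 ± 0.07. The mean level over the 24 genes was 5.93 to 5.99 at day 0 and 5.06 to 5.22 at day 4 in si-Rsl24d1 cells, beside 4.88 to 4.97 and 4.91 to 4.97 in si-CTL cells. The list was drawn up with earlier results of these libraries known and is not independent evidence of its direction.

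Targets of ATF4, the transcription factor of the amino acid and integrated stress response, had median changes of opposite sign in si-Rsl24d1 and si-CTL cells. Of 29 tested, 5 rose and 2 fell in si-Rsl24d1 cells with a median of 0.39, and 1 rose and 12 fell in si-CTL cells with a median of -0.72. Chac1, a glutathione-degrading enzyme (chromosome 2, 119351229 to 119354381), was at 1.79, 1.83 and 1.60 and then at 2.99, 2.81 and 3.14 in si-Rsl24d1 cells, and at 4.66, 4.64 and 4.66 and then at 2.69, 3.37 and 2.52 in si-CTL cells. Its level rose in the former and fell in the latter, and the ranges overlapped at day 4. Nupr1 (a stress-induced chromatin protein) and Pck2 (mitochondrial PEPCK) rose by 1.54 ± 0.12 and 1.26 ± 0.11, beside changes of -0.72 ± 0.12 and -0.37 ± 0.11 in si-CTL cells. Asns, asparagine synthetase, rose in both, from 6.77 to 8.60 and from 7.57 to 8.60. Ddit4, an inhibitor of mTORC1 that p53 also induces, and Sesn2 fell by 2.07 and 1.08. A more positive change than in si-CTL cells was called for 20 of the 29 and a more negative one for 1, Ddit4, and with median of ratios scaling for 17 and 1. The same holds for this list.

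**Figure D3:**
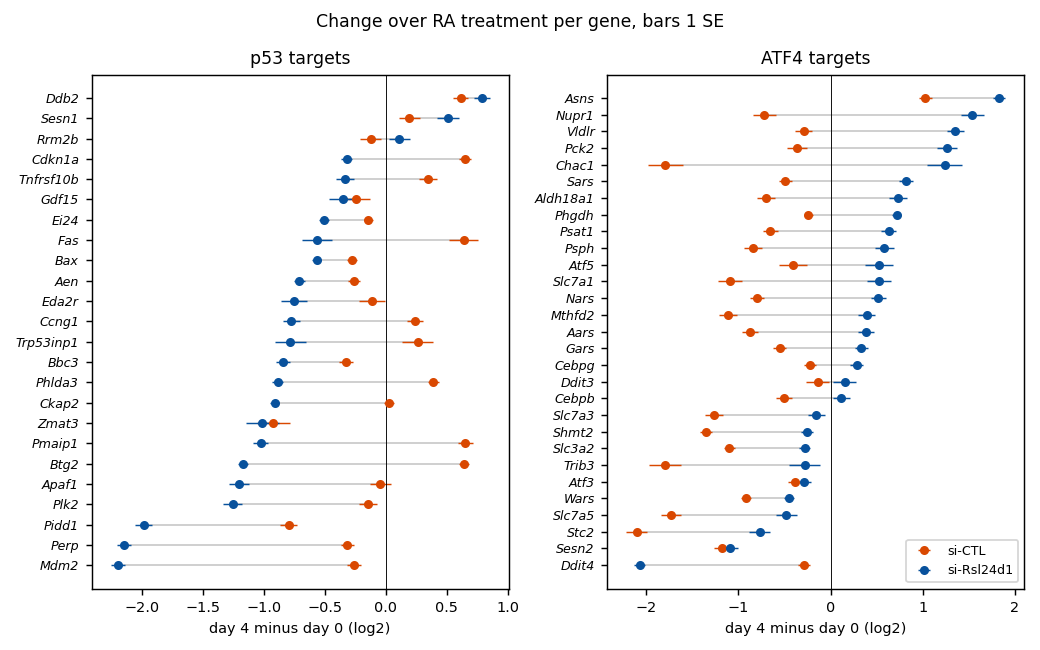
Change from day 0 to day 4 (log2, horizontal axis) of each tested p53 target (left) and ATF4 target (right) in si-Rsl24d1 and si-CTL cells, with bars of 1 SE from the fit over all 24 libraries. Points of si-Rsl24d1 cells lie left of those of si-CTL cells for Mdm2 and Perp (-2.20 beside -0.26 and -2.15 beside -0.31) and right of them for most ATF4 targets, such as Chac1 (1.24 beside -1.79).

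Few ribosomal protein genes were called, while 7.93% of all genes tested rose and 6.22% fell. None of 34 small subunit proteins was called in either direction, with a median of 0.06, and 2 of 51 large subunit proteins rose, Rpl39l (a paralogue of Rpl39) by 2.17 ± 0.08 and Rpl22l1 (a paralogue of Rpl22) by 1.59 ± 0.12. Of 52 assembly factors of the 60S subunit 3 fell, Nle1, Rrs1 and Ddx55, and of 48 of the 40S subunit 6 fell, with Pwp2 and Utp20 at -1.16 ± 0.07 and -1.15 ± 0.12. The count of 60S factors that fell is near that of any genes. Without the third library of day 4, 5 of the 60S factors fell. No factor of either list rose, and in si-CTL cells 12 of each list fell. A difference between the si-Rsl24d1 and si-CTL day effects was called for none of the factors, under both scalings. The median difference was 0.19 for the 60S and 0.21 for the 40S factors, and 0.04 and 0.06 with median of ratios scaling. Mycn and Myc, which drive ribosome synthesis, fell by 1.87 and 1.39. The fall of Myc was smaller than in si-CTL cells, where it went from a mean of 5.23 to 2.37, beside 4.69 to 3.30 in si-Rsl24d1 cells, a difference of 1.47 ± 0.10.

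Among chromatin genes, the PRC2 core members Ezh2, Suz12 and Eed changed by 0.12 ± 0.06, 0.28 ± 0.08 and -0.43 ± 0.04 and were not called. The PRC2 accessory genes Phf19 and Epop rose by 1.25 ± 0.12 and fell by 1.15, and of 20 PRC1 genes 2 rose, among them Pcgf5 by 1.07 ± 0.07, and 1 fell, Phc1 by 1.99. Over all genes tested 7.93% rose and 6.22% fell, so that the counts of both PRC lists are near those of any genes. With 2 added to the TPM 1 PRC1 gene rose, and with median of ratios scaling 2 fell, as they did without the third library of day 0 or without the second or the third library of day 4. The PRC2 list had 2 falls without the third library of day 4. Of 38 genes of the cell cycle and replication, Ccnd3 rose by 0.98 ± 0.04 and Ccnd1 fell by 1.58, and no other was called, whereas without the first library of day 4 3 rose and 2 fell. Among the cyclin-dependent kinase inhibitors and pocket proteins, Cdkn2a, Cdkn1c and Cdkn2b rose by 1.34 ± 0.06, 1.02 ± 0.06 and 0.91 ± 0.07, and Rb1 fell by 1.01 beside a change of 0.71 ± 0.09 in si-CTL cells. Of 22 genes of glycolysis 5 rose and none fell, with Ldhb at 1.39 ± 0.04 and Pfkp at 1.06 ± 0.07. In si-CTL cells 1 of the 22 rose and 2 fell, and in rescued cells 3 rose and 5 fell. The medians were 0.36 in si-Rsl24d1, 0.01 in si-CTL and -0.14 in rescued cells. A difference to the day effect of si-CTL cells was called for 1 of the 22, and for none with median of ratios scaling. In the Lin28 and let-7 list, Lin28a fell by 0.86, a call lost without the first or second library of day 0 or the first of day 4, and the oncofetal genes Igf2bp2 and Hmga2 rose by 1.24 ± 0.08 and 0.98 ± 0.07.

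**Figure D4:**
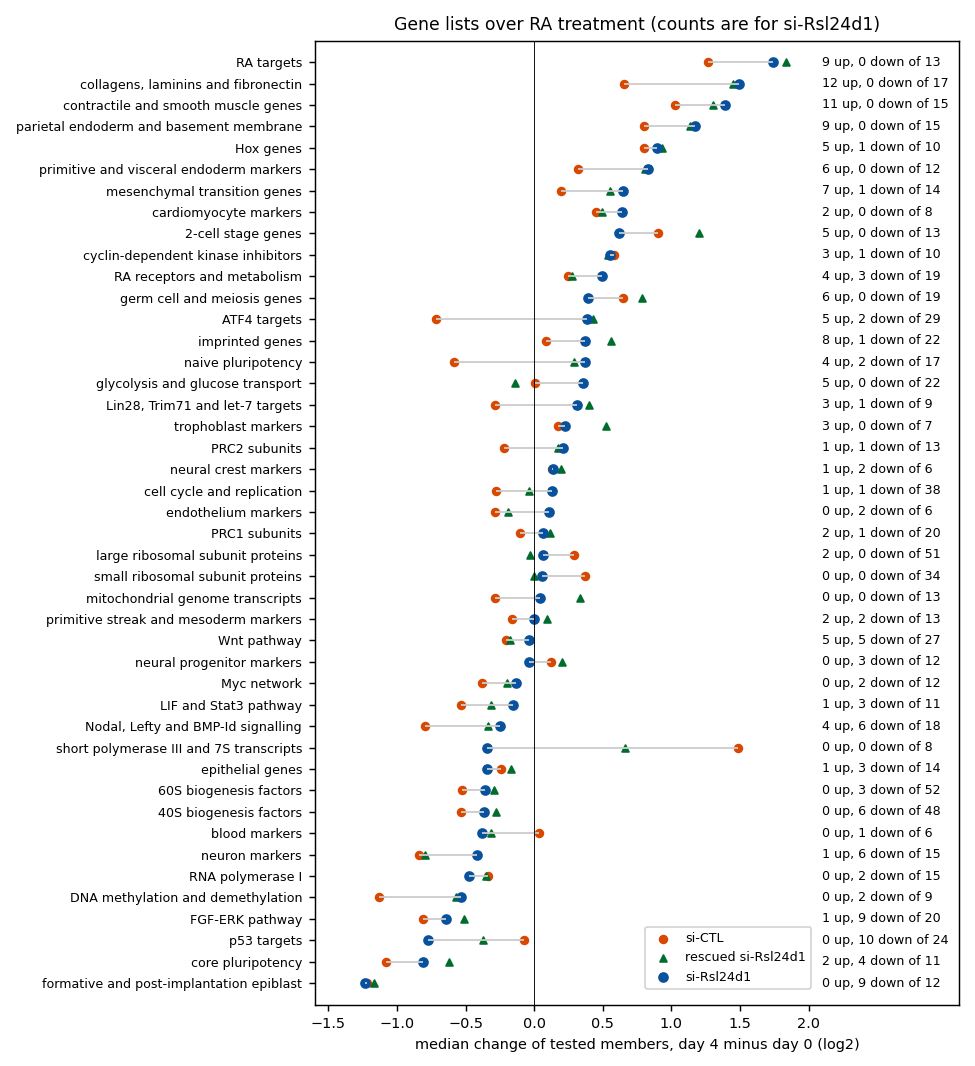
Median change of the tested members of each gene list from day 0 to day 4 (log2, horizontal axis) in si-Rsl24d1 cells (blue), si-CTL cells (orange) and rescued si-Rsl24d1 cells (green triangles), ordered by the si-Rsl24d1 value. The numbers at the right count members that rose or fell in si-Rsl24d1 cells, from 9 of 13 RA targets that rose at the top to 9 of 12 formative genes that fell at the bottom.

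The changes over RA were then set against those of si-CTL cells, with which they share no library. In si-CTL cells 1114 genes rose (6.77% of those tested) and 1355 fell (8.24%). Of the genes called in si-Rsl24d1 cells, 1253 were called in the same direction in si-CTL cells, which is 53.8% of the former and 50.7% of the latter list. Across the tested genes, which are not independent replicates, the correlation of the changes was 0.684 (Pearson), given as a description. A difference between the day effects was called for 922 genes, with a more positive change in si-Rsl24d1 cells for 477 (2.9%) and a more negative one for 445 (2.71%). This split depends on the scaling: with median of ratios scaling it was 281 and 576, so that 32.8% in place of 51.7% were more positive, and the median difference over all genes moved from 0.14 to 0.02. It also depends on the first library of day 4, whose size factor was 1.00 beside 1.11 and 1.09 in the other day 4 libraries of si-Rsl24d1 cells. Without that library 704 genes had a more positive change. Of the 2327 genes called in si-Rsl24d1 cells, 476 (20.5%) carried a called difference.

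Among protein coding genes of the naming rule, the most negative differences were those of Shisal2b, Dcxr, Ltb4r2, Anxa8, Cpz and Pm20d1. Dcxr, a dicarbonyl and xylulose reductase, was at 6.78, 6.70 and 6.88 and then at 5.37, 5.34 and 5.33 in si-Rsl24d1 cells, and at 4.62, 4.57 and 4.68 and then at 6.28, 6.10 and 6.21 in si-CTL cells. It fell in the former and rose in the latter, with a difference of -3.02 ± 0.08. Anxa8, an annexin, crossed in the same way, from 3.43 to 2.24 and from 1.63 to 3.32, whereas Cpz, a carboxypeptidase, fell from 4.11 to 1.49 beside 0.85 and 1.00 in si-CTL cells. The most positive differences among them were those of Chac1, Nupr1, Col3a1, Actc1, Tnc and Ubap1l. For the matrix and actin genes among them both siRNA groups rose, and Actc1 reached 4.71, 4.80 and 4.69 in si-CTL cells. Only 9 genes were called in opposite directions, 7 of them lower and 2 higher in si-Rsl24d1 cells. The latter were Chac1 and Gm10222, an unprocessed pseudogene noticed after the values were seen, which was listed at 0 in 2 of 3 libraries of si-Rsl24d1 cells at day 0 and of si-CTL cells at day 4.

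**Figure D5:**
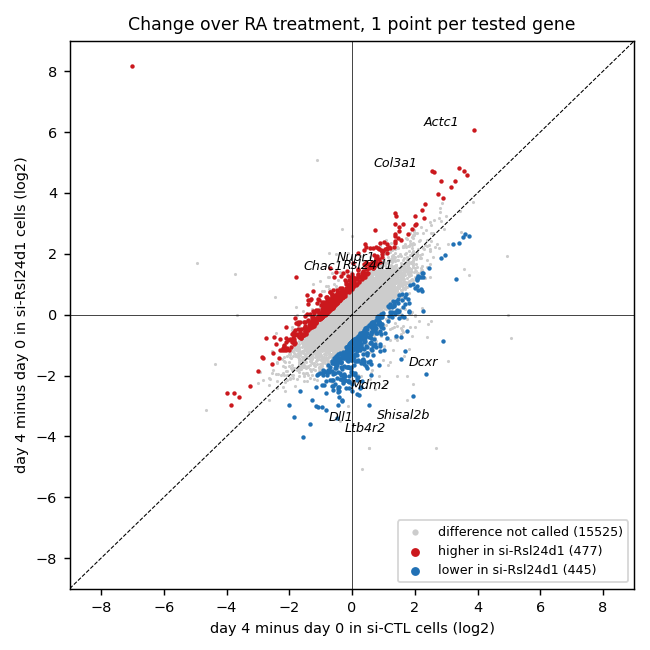
Change from day 0 to day 4 in si-Rsl24d1 cells (vertical axis, log2) against that in si-CTL cells (horizontal axis, log2), with 1 point for each of 16447 tested genes and the line of equal change dashed. Red and blue points are the 477 and 445 genes whose difference was called, and the isolated point at the upper left is the pseudogene Gm10222.

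The change over RA was also compared with that of rescued cells. In rescued cells 1536 genes rose over RA (9.34%) and 916 fell (5.57%), and 1725 of the genes called in si-Rsl24d1 cells were called in the same direction, which is 74.1% of them and 70.4% of the rescued list. A difference between the day effects was called for 115 genes, with a more positive change in rescued cells for 89 (0.541%) and a more negative one for 26 (0.158%). Rsl24d1 itself was among the latter, with a change of 0.29 ± 0.07 in rescued cells beside 1.39 ± 0.07. Shisal2b, Anxa8, Cd55 (a complement regulator) and Usp17lb had the most positive differences by the naming rule, of 1.52, 1.36, 1.25 and 1.14. Anxa8 changed by 0.17 ± 0.06 in rescued cells, between the -1.19 ± 0.06 of unrescued and the 1.69 ± 0.06 of si-CTL cells. Ndufa4l2, Aldoc (a glycolytic aldolase), Phlda2 (an imprinted growth regulator) and Mymx had the most negative ones, of -1.58, -1.19, -1.17 and -1.12. Of the p53 targets, 3 fell in rescued cells and the median was -0.37, between -0.78 and -0.08, with Mdm2 at -1.44 ± 0.06. A more positive change than in unrescued cells was called for 2 of the 24. The ATF4 targets had a median of 0.43 in rescued cells, close to the 0.39 of unrescued cells, and no member of that list carried a called difference between them.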

How the data were processed

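RNA-seq was measured in 24 libraries of CGR8 cells, 3 in each of 8 groups defined by the labels (day, siRNA, rescue). The deposited values are log2 values, log2(TPM + 1) per gene symbol, which the authors made from Salmon estimates. The methods name a stranded total RNA kit and GRCm38. The labels name a poly-A kit, and the submitters' processing notes STAR 2.7.8a, Salmon 1.4.0 and a human genome build. The values are mouse gene symbols. The methods give collection 72 h after transfection, and descriptions of the day 0 samples 48 h. Without counts, the count model of the study could not be repeated, and depth is unknown.

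Tests covered the 16447 of 54242 symbols whose log2(TPM + 1) averaged 0.5 or more across the 24 libraries. The 8 group means were fitted with limma 3.58.1 in R 4.3.3 (empirical Bayes with an intensity trend, no replicate term, two-sided, Benjamini-Hochberg adjustment within each comparison). The thresholds follow the study. Symbols were matched to gencode vM21 (GRCm38) for type and position. Replicate numbers did not pair the samples, and no 2 libraries were identical.

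Named genes are Rsl24d1, the 10 largest rises and falls among called protein coding genes above 0 in all 6 libraries, genes listed at 0 on 1 day, and of each list at most 4 called genes in each direction, its defining markers and at most 2 uncalled members. They also include the 6 and 4 largest differences of protein coding genes in each direction against si-CTL and rescued cells and a few known siRNA responders. The members and lists were chosen with earlier results of these data known. Alternatives were 0.1 or 2 added to the TPM, no filter or a filter at 1.5, only the groups compared, a replicate block, median of ratios scaling, no fold threshold, and each si-Rsl24d1 library left out. Some named genes are not reported here.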

Additional observations from a re-analysis of the deposited data

Results flagged for a closer look

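The change over RA treatment differed between si-Rsl24d1 and si-CTL cells by the limma interaction test for 922 genes, and between rescued and unrescued si-Rsl24d1 cells for 115. Named against si-CTL cells were Chac1 (3.03), Nupr1 (2.25), Actc1 (2.20), Col3a1 (2.20), Tnc (2.09) and Ubap1l (2.07) with a more positive log2 change in si-Rsl24d1 cells, and Shisal2b (-3.51), Dcxr (-3.02), Ltb4r2 (-2.92), Anxa8 (-2.88), Cpz (-2.77) and Pm20d1 (-2.59) with a more negative one. Named for rescued minus unrescued cells were Shisal2b (1.52), Anxa8 (1.36), Cd55 (1.25) and Usp17lb (1.14), and Ndufa4l2 (-1.58), Aldoc (-1.19), Phlda2 (-1.17) and Mymx (-1.12). Groups of 3 libraries are too small for a test of single outlying libraries.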

How the results depend on the processing

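Of 178 named genes called for day 4 against day 0 in si-Rsl24d1 cells, none reversed under any alternative and 21 lost their call at least once. Of 87 with a called difference to si-CTL cells, none reversed and 18 lost it, 14 of them with median of ratios scaling. With 0.1 added to the TPM, 1974 genes rose in si-Rsl24d1 cells, and the difference to si-CTL cells was called for 1452 genes, 830 of them more positive. With 2 added, 310 were more positive, and the difference between rescued and unrescued cells was called for 67 genes (54 and 13). With 0.1 added, 55 had a more negative change in rescued cells. Median of ratios scaling left 281 genes more positive than in si-CTL cells. Without the fold threshold, 9177 genes were called for the days (4833 and 4344), 5082 for the difference to si-CTL cells (3630 and 1452) and 961 for that to unrescued cells (475 and 486). Leaving out 1 si-Rsl24d1 library in turn gave 1253 to 1429 rises and 962 to 1086 falls, 418 to 704 more positive and 426 to 452 more negative differences to si-CTL cells, and 80 to 98 and 21 to 32 for rescued minus unrescued cells. The 704 came without the first day 4 library, with which the number was 477. With a replicate block the counts were 1304 and 1022 for the days, 475 and 446 for the difference to si-CTL cells, and 85 and 26 for that to unrescued cells, and same-numbered libraries of the 2 days had residual correlations of -0.10, 0.02 and -0.08, so that the numbers were not treated as pairs. Precision rests on 3 libraries per group at unknown depth, with the spread estimated over all 24 libraries. Values that change with the pseudocount are those of genes near 0, such as most Hox genes.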
